A study of Mus musculus with 2 samples.

Results

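Gamma-delta T cells are T lymphocytes whose antigen receptor joins a gamma chain to a delta chain, in place of the alpha and beta chains of conventional CD4 and CD8 T cells. In mice they fall into a type 17 branch, which makes interleukin 17A, carries little CD27 and settles in skin and mucosa, and a CD27-bearing type 1 branch, which shares cytotoxic and natural killer receptor genes with CD8 T and NK cells. The cells described here were chosen from single-cell RNA counts of leukocytes from B16-F10 mouse melanomas. A member was a barcode with 300 or more genes seen and no more than 10% of its counts from mitochondrial genes that held at least 1 UMI (unique molecular identifier, 1 counted transcript) of Cd3e and of Trdc, the constant region of the delta chain. It also had no UMI of Cd8b1, Cd4, Foxp3, Ncr1, Csf1r or Cd79a, which mark CD8, CD4 and regulatory T cells, NK cells, macrophages and B cells. By this rule 143 of 22490 kept cells were members.

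All mice were males aged 8 to 12 weeks with 1 copy of R26CreERT2, a tamoxifen-activated Cre recombinase expressed from a ubiquitous locus. The knockout group (Trex1 iKO) was Trex1 fl/fl, and the control group was Trex1 wt/fl, so that the controls were heterozygous for the conditional allele and carried the same Cre. B16-F10 melanoma cells, 1000 in Matrigel, were placed intradermally on both legs. Every mouse received 1 mg tamoxifen on 3 consecutive days beginning on day 5, tumours were taken on day 14, and live CD45+ cells were sorted after bead enrichment. Because the Cre is not restricted to a lineage, any host cell could lose Trex1. Trex1 encodes an exonuclease that degrades DNA in the cytosol, and the study asked how its induced loss alters immunity to the tumour. Each genotype had 4 samples told apart by hashtag antibodies, and whether a hashtag stands for a single mouse is not stated. The p-values therefore measure the spread between these samples. The 4 samples of a genotype shared 1 pool, and genotype and pool cannot be told apart.

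In sample order there were 16, 23, 7 and 17 members in iKO and 16, 16, 31 and 17 in control. Their median depth was 5812 to 8067.5 UMIs in iKO and 5319.5 to 6684 in control. Over all kept cells the medians were 13048 to 14677 in iKO and 6557 to 11931 in control. In make-up, iKO samples 1 and 2 differed from iKO samples 3 and 4. CD8 T cells were 1063 of 3869, 2157 of 5901, 130 of 1304 and 223 of 2457 kept cells in iKO samples 1 to 4. Since iKO sample 3 had too few members for the fits, a fit without iKO sample 4 rests on iKO samples 1 and 2 alone. No barcode was shared between samples of 1 genotype, and no member had a doublet score above 0.25. Trex1 gave 2 UMIs over all kept cells and 0 in members, so its transcripts do not check the genotype here.

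The delta-chain gene that chose the members was well above the rule's limit in most of them, with a median of 6 and a maximum of 30 UMIs of Trdc. At the limit, 13 members held 1 UMI and 19 held 2. A gamma constant-region gene, Trgc1, Trgc2 or Trgc4, was present in 84.6% of the members with 1 Trdc UMI, in 73.7% of those with 2 and in 87.4% of the 111 with 3 or more. The same was true of 18.1% of 832 cells just outside the rule, which passed every other condition but had no Trdc UMI. A Trdc UMI was found in 0.312% of 7374 macrophages and monocytes and 0.259% of 773 B cells, types that should lack the gene. Before the 6 exclusions 277 cells held both Cd3e and Trdc. Of these 80 held Cd8b1 and 29 held Ncr1. Alpha and beta chain transcripts were present too: Trbc2, a beta constant region, was in 89.5% of members, beside 98.9% of CD8 T, 54.5% of NK cells and 21.5% of macrophages and monocytes, and Trac was in 35.0%, beside 96.6% of CD8 T cells. Blk, a kinase gene of the type 17 branch given as a marker, was found in 17 of the 143 members. It is not particular to them, as it was also in 31.0% of the 773 B cells.

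Gamma and delta segments were read from the members' counts. The rule did not use any gamma gene, yet 122 of 143 members had a UMI of a gamma constant region and 21 had none. Trgc1 was detected in 80 members, Trgc4 in 76 and Trgc2 in 74. Summed over members and scaled to counts per 1000000 (CPM), Trgc1 was 159, 264, 262 and 132 in iKO samples 1 to 4, against 114, 212, 341 and 160 in control samples 1 to 4, and the genotypes overlapped. Among variable segments, Trgv2 was the most often seen, in 77 members and all 8 samples, followed by Trgv1 in 34 members. Gamma segments differ in how far they mark these cells: Trgv2 was also in 25.4% and Trgc2 in 29.4% of CD8 T cells, against 2.58% for Trgc1, 2.13% for Trgc4 and 0.384% for Trgv1. In NK cells the order was different. Of 123 NK cells, 16 held Trgc4, 2 held Trgv1, 1 held Trgc1 and 0 held Trgc2 or Trgv2. Trgv4 was seen in 15 members, Trdv4 in 15, Trdv5 in 10 and Trdv1 in 9. Trdv4 is not particular to members, as it was also in 31 of the 123 NK cells. Trgv6, used by a fetal-derived type 17 lineage, was seen in 5 members, and each of them held Trgc1. Trgv5 and Trgv7, used by epidermal and intestinal gamma-delta T cells, had 0 UMIs, as had Trdv3 and Trgc3. These are 3' counts with few UMIs per cell, and a segment that was not seen in a cell may have been missed.

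Members split into a small type 17 set and a larger set with NK receptor and circulation genes. The number of genes detected per cell among 15 type 17 genes had a gap: 108 members had 0 and 11 had 1, while 22 had 4 to 9, with only 2 cells between. The 15 genes included Il17a, the receptors Il23r, Il17re and Il1r1, the transcription factors Sox13 and Zbtb16, the scavenger receptors Scart1 and Scart2, and Blk, Actn2 and Kcnk1. They were picked after the values had been seen, so the split is a description and carries no test. With a limit of at least 2 of them, 24 members were called type 17 and 119 were not. Median depth was 5588 UMIs in the former and 6474 in the latter.

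**Figure D1:**
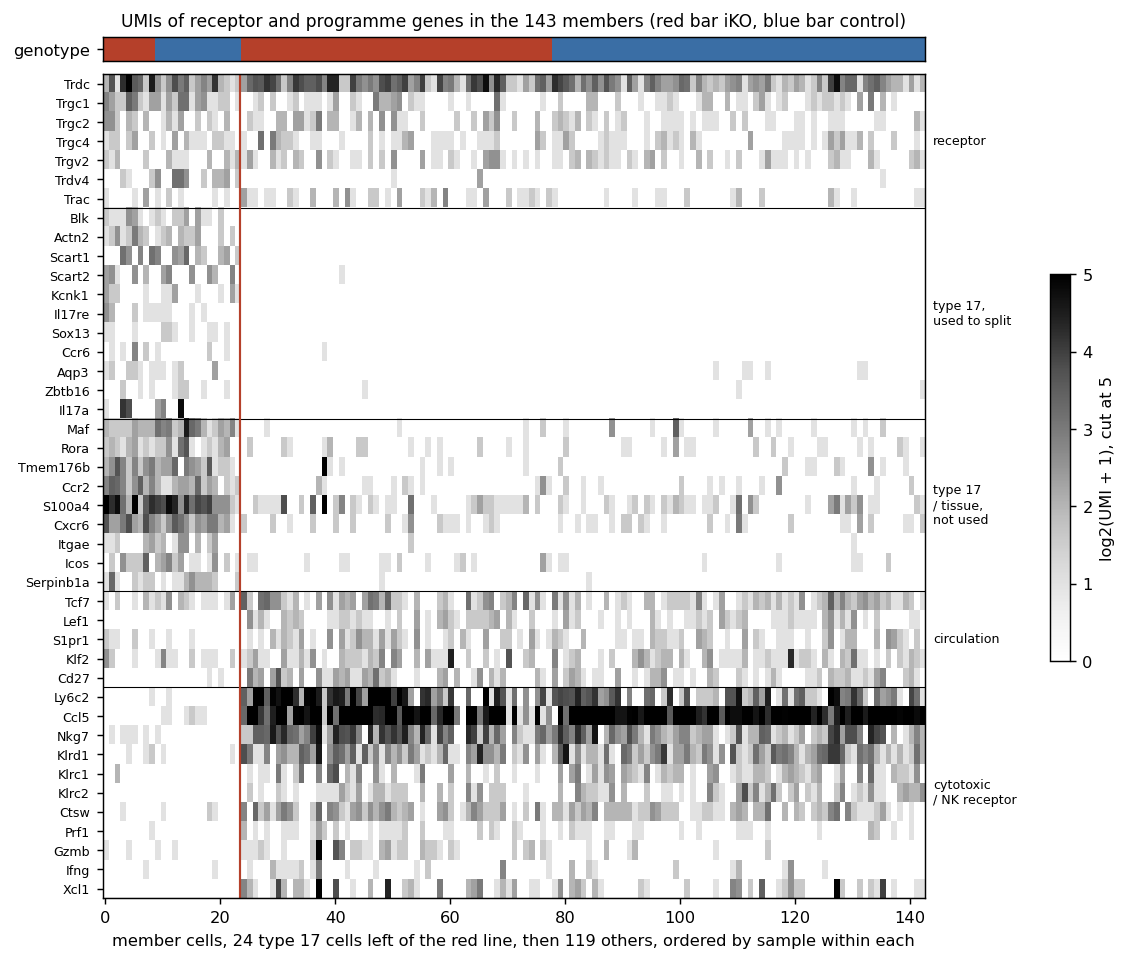
Each column is 1 of the 143 members and each row a gene, with darker cells for more UMIs on a log2(UMI + 1) scale cut at 5; the bar on top gives the genotype. The 24 type 17 cells, left of the red line, carry Maf, Ccr2 and Cxcr6 and few Ly6c2, Ccl5 or Nkg7 counts, while Ccl5 is in 117 of the 119 others and Maf in 17.

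Genes that played no part in the split differed widely between the sets. Maf, a transcription factor of the type 17 branch, was detected in 24 of 24 type 17 members and in 17 of 119 others. Cxcr6, a chemokine receptor of tissue T cells, was in 23 of 24 and in 39 of 119. Rora, a nuclear receptor gene, was in 21 and 30 cells of the sets, and Ccr2, a chemokine receptor, in 23 and 23. Itgae, the CD103 integrin of epithelial T cells, was in 13 and 2. Among receptor genes, Trgc1 was in 23 of 24 type 17 members against 57 of 119 others, and Trdv4 was in 12 against 3. Of the 5 cells with Trgv6, 4 were type 17 members.

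The other 119 members carried NK receptor and lymphoid-circulation genes and some genes of cytotoxic cells. Other effector genes did not follow. The cytokine gene Tnf was more frequent in the type 17 set, and Gzmb, Prf1 and Ifng were lower in members as a whole than in CD8 T cells, as given below. Ccl5, a chemokine of effector T cells, was detected in 117 of them and in 6 of 24 type 17 members. Klrd1, the CD94 chain of NK receptors, was in 111 and 5, Nkg7, a granule protein, in 109 and 6, and Ly6c2, a memory and interferon-linked surface protein, in 101 and 2. Cd27, which separates the branches by convention, was in 73 of 119 and in 2 of 24. Lef1, a transcription factor of resting T cells, was in 71 and 0. Eomes, a cytotoxic-lineage factor, was in 31 and 0, and Klrb1c, the NK1.1 antigen, in 36 and 0. Tcf7, a factor of resting and self-renewing T cells, was shared more evenly, in 93 of 119 and 16 of 24.

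The type 17 set was spread unevenly over samples. It made up 3 of 16, 2 of 23, 2 of 7 and 2 of 17 members in iKO samples 1 to 4, and 0 of 16, 1 of 16, 14 of 31 and 0 of 17 in control samples 1 to 4. Control sample 3 alone held 14 of the 24 cells, and without it the set was 8.93% of 112 members in place of 16.8% of 143. The pattern was also there in the 10 type 17 cells of the other samples: all 10 held Maf, Cxcr6 and Rora, and 0 of 10 held Ccl5. Control sample 3 was also high in immediate-early genes in members, with 1010 CPM of Fos, an activation and tissue-dissociation gene, against 114 to 135 in the other controls and 290 to 550 in iKO. The same sample held 428 B cells, against 42, 60 and 54 in control samples 1, 2 and 4. Whether either of these bears on its type 17 share was not tested.

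Il17a, the signature cytokine, was found in 6 members from 4 samples, with 1 to 27 UMIs per cell and 68 in all. All 6 were type 17 members, all had Trgc1, 4 had Trdv4 and 0 had Cd27. In percent of members Il17a was at 6.25, 8.70, 0 and 0 in iKO samples 1 to 4, against 0, 6.25, 6.45 and 0 in control samples 1 to 4. With so few cells, 0 of 16 allows up to 20.6% (exact binomial 95% interval, counting error only). Among macrophages and monocytes 0.0949% held an Il17a UMI. The genotypes, without the 7 cells of iKO sample 3, did not differ detectably (4.98% ± 4.48, SD, n = 3, against 3.18% ± 3.67, n = 4; exact permutation test, 2-sided p = 0.743, adjusted over 4 share tests 0.743).

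Ifng, the type 1 cytokine, was detected in 26 members, of which 2 were type 17. The shares were 50%, 21.7%, 0% and 17.6% in iKO samples 1 to 4, against 18.8%, 6.25%, 19.4% and 0% in control samples 1 to 4. The iKO mean was 29.8% ± 17.6 (SD, n = 3) and the control mean 11.1% ± 9.55 (n = 4), and the ranges overlapped (exact permutation test, 2-sided p = 0.171, adjusted 0.229; 3 against 4 samples cannot go below 0.0571). With each cell thinned to 2000 UMIs the means were 8.09% and 5.54%. An Ifng UMI was also found in 9.0% of macrophages and monocytes, and in 76.3% of CD8 T cells.

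The mean share of members among sorted leukocytes was lower in iKO, without passing the test. Their share of kept cells was 0.414%, 0.390%, 0.537% and 0.692% in iKO samples 1 to 4, against 0.808%, 0.934%, 1.12% and 0.679% in control samples 1 to 4. Only iKO sample 4 and control sample 4 crossed. The means were 0.508% ± 0.139 (SD, n = 4) in iKO and 0.886% ± 0.189 (n = 4) in control, and they were compared over samples (exact permutation test, 2-sided p = 0.0571, adjusted 0.229; the smallest possible p is 0.0286). With cells thinned to 2000 UMIs the means were 0.416% ± 0.151 and 0.555% ± 0.134. These are shares of sorted cells, not numbers of cells in the tumour.

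Among Cd3e-positive cells without Csf1r, Cd79a or Ncr1 UMIs, members were 1.15%, 0.876%, 2.29% and 3.60% in iKO samples 1 to 4, against 2.27%, 3.16%, 4.88% and 5.06% in control samples 1 to 4. The ranges overlapped, with means of 1.98% ± 1.24 (SD, n = 4) and 3.84% ± 1.35 (n = 4; exact permutation test, 2-sided p = 0.143, adjusted 0.229).

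**Figure D2:**
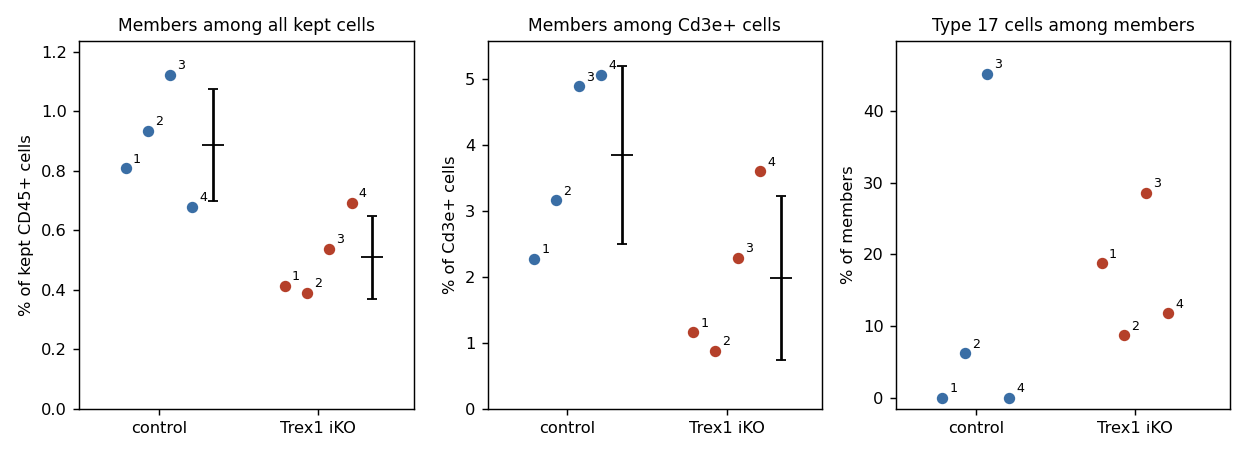
Share of members among all kept cells (left, %), among Cd3e-positive cells (middle, %) and of type 17 cells among members (right, %), each point 1 hashtagged sample with its number; bars are mean ± SD of 4 samples. In the first panel 3 of 4 control points lie above all 4 iKO points, in the second the groups overlap more, and control sample 3 stands alone at 45.2% in the third.

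Members of Trex1 iKO tumours carried higher interferon-stimulated transcripts than members of control tumours. UMIs were summed over the members of each sample, and 3 iKO samples were tested against 4 control samples. The 7 members of iKO sample 3 were left out for want of cells, so that 136 members entered. Of 2036 genes tested 14 passed an adjusted p of 0.05 (edgeR's quasi-likelihood test with Benjamini-Hochberg adjustment), 9 higher and 5 lower in iKO, or 0.688% of the genes tested (0.442% higher and 0.246% lower). At an unadjusted p under 0.05 there were 229. Type I interferons, made on sensing of cytosolic DNA among other triggers, signal through the receptor chains Ifnar1 and Ifnar2 and the kinases Jak1 and Tyk2 to factors that switch on the genes named next.

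The most strongly supported was Ifi27l2a (ENSMUSG00000079017), a small mitochondrial protein gene of the interferon response. It stood at 2071, 2573, 1701 and 1018 CPM in iKO samples 1 to 4, against 281, 145, 235 and 153 in control samples 1 to 4. Every iKO sample, including the untested sample 3, lay above every control sample. The log2 fold change was 3.17 ± 0.30 (SE; adjusted p = 3.4e-05).

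Irf7 (ENSMUSG00000025498), the transcription factor that amplifies interferon production, was at 311, 416, 183 and 149 CPM in iKO and at 20.8, 22.3, 35.2 and 22.9 in control. The groups did not overlap, and the log2 fold change was 3.41 ± 0.40 (adjusted p = 0.00029). Isg15 (ENSMUSG00000035692), a ubiquitin-like protein attached to other proteins during the response, was at 493, 685, 183 and 290 CPM in iKO against 104, 22.3, 52.8 and 7.63 in control. It rose by 3.38 ± 0.44 (adjusted p = 0.00066), again without overlap.

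Ifit1 (ENSMUSG00000034459), a sensor of foreign RNA ends, was at 254, 242, 262 and 124 CPM in iKO and at 20.8, 0, 0 and 30.5 in control, with a log2 fold change of 3.94 ± 0.56 (adjusted p = 0.0013). Its neighbour in the same gene family, Ifit3, was at 297, 326, 105 and 108 CPM in iKO and at 104, 11.2, 0 and 0 in control. For Ifit3 control sample 1 came close to the lower iKO samples, and the log2 fold change was 3.32 ± 0.70 (adjusted p = 0.040). It did not pass with DESeq2 (adjusted p = 0.870) or when members needed at least 2 Trdc UMIs (0.072). Slfn1, a Schlafen-family gene linked to T cell quiescence, was at 304, 315, 105 and 190 CPM in iKO and at 41.6, 22.3, 41.1 and 53.4 in control (2.67 ± 0.32, adjusted p = 0.00029).

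The other genes that rose were Xaf1, a partner of the apoptosis inhibitor XIAP, Bst2, the virus-tethering protein tetherin, and Ifi47, an interferon-induced GTPase. Xaf1 rose by 2.00 ± 0.39 (adjusted p = 0.027) and Ifi47 by 1.65 ± 0.33 (adjusted p = 0.032), with no overlap in either. Bst2 rose by 1.99 ± 0.43 (adjusted p = 0.049), but iKO sample 4, at 165 CPM, lay below control sample 1, at 229. DESeq2 called 11 genes, 9 higher and 2 lower. The count was 9 when iKO sample 1 or control sample 1, 2 or 4 was dropped, and 37 without iKO sample 4. Leaving out single samples kept Ifi27l2a, Irf7, Isg15, Ifit1 and Slfn1 past the threshold each time. Ifit3 and Bst2 each lost it when iKO sample 1 or 2, or any control but sample 1, was dropped, Xaf1 when iKO sample 2, or any control but sample 2, was dropped, and Ifi47 without iKO sample 1 or any 1 control sample. With a sample left out their adjusted p reached 0.301 at most.

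**Figure D3:**
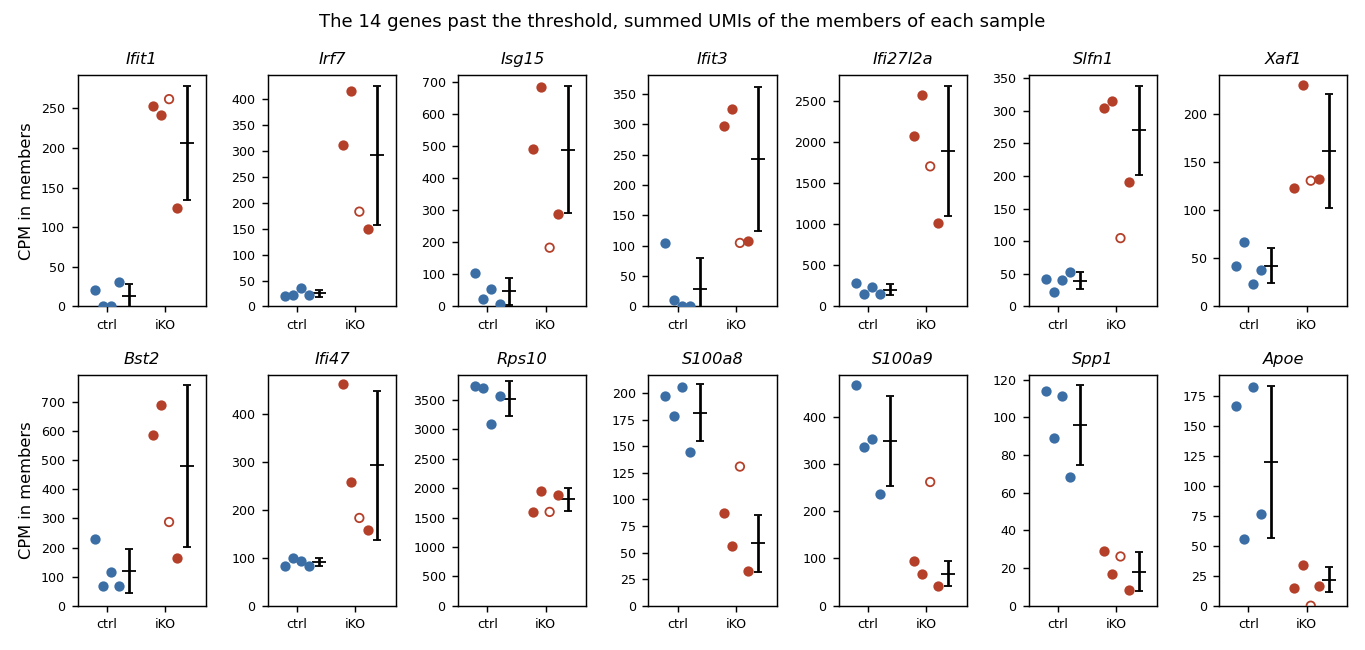
CPM of the 14 genes past the threshold in the members of each sample, on linear axes from 0; filled points entered the test, the open point is iKO sample 3 with 7 members, and bars are mean ± SD of the tested samples (3 iKO, 4 control). The upper row and the first 2 panels of the lower row are the genes higher in iKO, and the last 5 panels those lower in iKO.

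Each of the 9 genes that rose also had a range in iKO above that in control in other cells. This held over all kept cells, in macrophages and monocytes and in CD8 T cells. Over all kept cells Isg15 was at 795 to 1461 CPM in iKO and 198 to 311 in control, and Irf7 at 380 to 581 and 45.8 to 88.6. In macrophages and monocytes Isg15 was at 855 to 2812 and 212 to 491. A UMI of Lyz2, a macrophage gene, was in 80.4% of members, beside 80.6% of CD8 T cells and 75.2% of B cells. The part of transcripts from other cells in the members' interferon values was not tested. Ifit1 in iKO was at 124 to 262 CPM in members, 98.7 to 175 over all kept cells and 90.6 to 313 in macrophages and monocytes. In control it was at 0 to 30.5, 16.7 to 49.6 and 13.2 to 66.2 CPM in the same order.

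The sequences before 3 of these genes are shown because they hold the interferon-stimulated response element, the motif through which the type I interferon factor complex acts. The letters searched were GAAANNGAAA, on both strands (TTTCNNTTTC on the other), within 250 bases before the start, and overlapping matches were counted. Sequences are RefSeq's, build GRCm38.p6, in the direction of the gene, with the matches in capitals. The windows are chr4:156200819-156201068 on the minus strand for Isg15, chr19:34640639-34640888 on the plus strand for Ifit1 and chr19:34583279-34583528 on the plus strand for Ifit3.
Isg15: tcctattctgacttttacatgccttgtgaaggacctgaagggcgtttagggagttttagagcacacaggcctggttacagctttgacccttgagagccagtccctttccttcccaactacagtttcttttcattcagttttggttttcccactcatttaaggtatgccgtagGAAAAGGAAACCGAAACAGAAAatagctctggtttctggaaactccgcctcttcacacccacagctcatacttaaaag
Ifit1: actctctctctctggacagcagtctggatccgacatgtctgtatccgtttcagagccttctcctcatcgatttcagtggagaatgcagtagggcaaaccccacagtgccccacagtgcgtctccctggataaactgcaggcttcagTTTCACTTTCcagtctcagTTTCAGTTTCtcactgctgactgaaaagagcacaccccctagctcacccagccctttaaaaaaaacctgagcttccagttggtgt
Ifit3: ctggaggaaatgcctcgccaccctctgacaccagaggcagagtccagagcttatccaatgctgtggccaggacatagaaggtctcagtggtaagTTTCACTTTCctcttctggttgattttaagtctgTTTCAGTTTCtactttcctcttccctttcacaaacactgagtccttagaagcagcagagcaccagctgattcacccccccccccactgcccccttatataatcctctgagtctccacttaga

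Isg15 held 3 overlapping matches, the nearest starting 66 bases before the start, and Ifit1 and Ifit3 held 2 each. Of the 9 genes that rose, 8 had a sequence and 4 of these held the motif, Bst2 being the other. Among genes of the type I interferon list that were tested, 12 of the 24 with a sequence held it, against 4.47% of the 1632 tested genes with a sequence and 2.98% of all 32851 windows. A match describes letters in these windows and is not a measured binding site.

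The interferon lists lay above zero. Of the 30 genes tested from a type I interferon response list, 8 rose and 0 fell, all 30 had a positive log2 fold change, and the median was 1.23, beside -0.01 over all genes. Genes of this list below the threshold included Ly6a, the stem cell antigen Sca-1 (1.99 ± 0.49, adjusted p = 0.092, but 0.0068 without iKO sample 4, 0.012 without control sample 3 and 0.0015 without the type 17 members) and the nucleic acid sensor Zbp1 (1.44 ± 0.39, adjusted p = 0.14). Of the 20 tested from an interferon gamma response list, which has no gene of the first list, 1 rose (Ifi47), all 20 were positive and the median was 0.60. The antigen-presentation genes H2-K1 (0.49 ± 0.16) and B2m (0.36 ± 0.17) were among those that did not pass. Of 4 receptor and kinase genes, including Ifnar1 (0.15 ± 0.32) and Ifngr1 (-0.37 ± 0.19), 0 passed and the median was -0.04. Of 8 CD3 and alpha-beta receptor genes 0 passed, 7 were positive and 3 had an unadjusted p under 0.05, all 3 higher in iKO, with a median of 0.34. The difference between lists was not tested.

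No gene of the type 17 list (8 tested, median 0.16), the type 1 and cytotoxic list (19 tested, median 0.13), the circulation list (7 tested, median 0.12) or the gamma-delta receptor list (5 tested, median -0.14) passed the test. The largest estimate among them was Gzmb, granzyme B, at 2.94 ± 0.76 (adjusted p = 0.12, and 0.028 without iKO sample 4). It was at 72.4, 472, 105 and 82.7 CPM in iKO and at 83.1, 22.3, 17.6 and 0 in control, so that iKO sample 2 stood apart. With the type 17 cells taken out, an alternative chosen after seeing the data, 21 genes passed, of which 12 were among the 14 above, and the type I list median was 1.21.

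**Figure D4:**
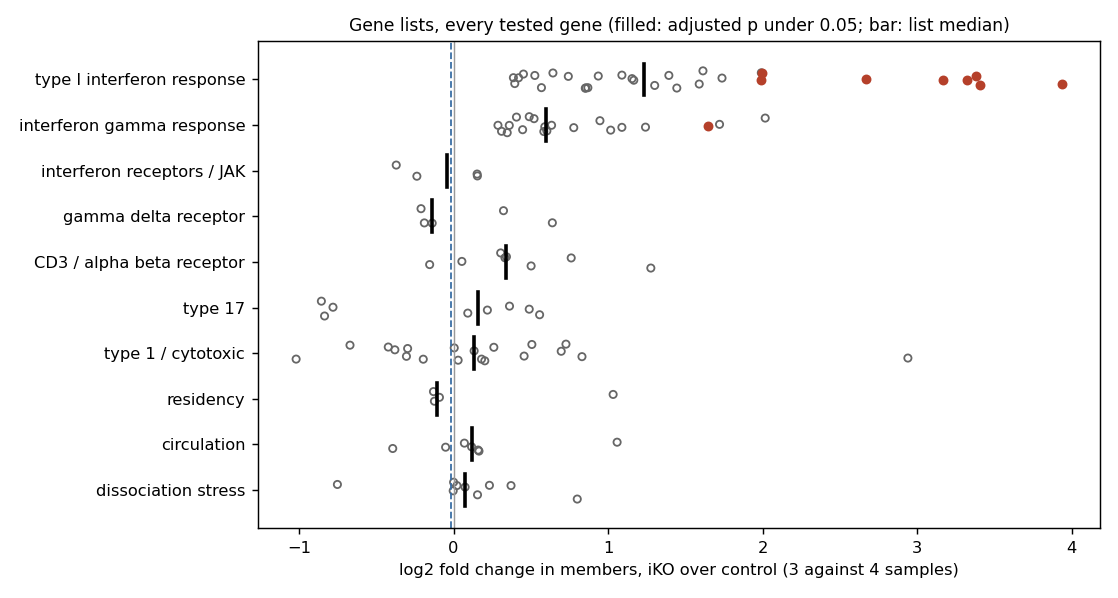
Log2 fold change in members, iKO over control, for every tested gene of 10 lists; filled points passed an adjusted p of 0.05, black bars are list medians and the dashed line is the median of all genes. Both interferon response lists lie wholly to the right of 0, with medians of 1.23 and 0.60, while the other medians lie between -0.14 and 0.34.

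The 5 genes lower in iKO members were S100a9, S100a8, Apoe, Spp1 and Rps10, and they are not particular to T cells. S100a9 and S100a8, the calprotectin subunits of neutrophils and monocytes, fell by 2.36 ± 0.32 (adjusted p = 0.00068) and 1.64 ± 0.32 (adjusted p = 0.027) on the log2 scale. Apoe and Spp1, abundant in macrophages, fell by 2.44 ± 0.51 (adjusted p = 0.040) and 2.37 ± 0.49 (adjusted p = 0.034). S100a9 was at 94.2, 67.4, 262 and 41.4 CPM in iKO members and at 468, 335, 352 and 236 in control members, and only the untested iKO sample 3 overlapped the controls. Over all kept cells S100a9 was at 369 to 3142 CPM in iKO and 2511 to 6535 in control, and in CD8 T cells at 62.3 to 95.7 and 156 to 889. The whole neutrophil list of 6 genes summed to 82.7 to 419 CPM in iKO members and 435 to 748 in control members, with 0 of 6 genes absent. The macrophage list of 10 genes summed to 268 to 445 and 473 to 738, with only Csf1r, which the rule excludes, at 0. The part of such transcripts from other cells in the result was not tested. S100a8 lost its call when iKO sample 2, or any control but sample 4, was dropped (adjusted p up to 0.10). S100a8 had an adjusted p of 0.053 with DESeq2. Apoe and Spp1 passed the filter on low counts in only 4 of the 7 such fits. Apoe lost its call in 2 of these, without iKO sample 1 or 4 (adjusted p up to 0.18), and Spp1 in 4 of 4 (up to 0.17).

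Rps10, a ribosomal protein gene, was at 1593, 1950, 1596 and 1886 CPM in iKO members and at 3731, 3708, 3089 and 3569 in control members (-1.01 ± 0.15, adjusted p = 0.0022). The same gap was present in CD8 T cells, at 1489 to 1846 against 2612 to 3218 CPM, and over all kept cells, at 954 to 1167 against 1721 to 2118. Reads of near-identical Rps10 copies may be counted with it or lost, so its counts are given as uncertain, and the part of such reads was not tested.

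Transcripts of the alpha chain gene Trac, which gamma-delta T cells lack as a rule, were more frequent in iKO members without passing the test. A Trac UMI was in 56.2%, 43.5%, 28.6% and 58.8% of members in iKO samples 1 to 4, against 18.8%, 25.0%, 22.6% and 29.4% in control samples 1 to 4. In CPM Trac was at 109, 135, 183 and 157 against 31.2, 55.8, 64.6 and 53.4, with no overlap (log2 fold change 1.28 ± 0.33, adjusted p = 0.12). A Trac UMI was also present in 22.8% of 123 NK cells and 9.37% of macrophages and monocytes, and the level in iKO CD8 T cells was 573 ± 109 CPM (SD, n = 4).

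The genotype difference of members was set beside that of CD8 T cells of the same samples, taken as Cd3e and Cd8b1 cells without the other lineage genes. Irf7 was at 16.8 ± 5.16 CPM (SD, n = 4) in control CD8 T cells and 78.8 ± 7.34 (n = 4) in those of iKO, beside 25.3 ± 6.68 (n = 4) and 292 ± 134 (n = 3) in members. Ifi27l2a stood at 507 ± 244 and 2668 ± 765 CPM in CD8 T cells of control and iKO, above the members in both groups (203 ± 65.7 and 1888 ± 794). Slfn1 was at 52.0 ± 7.09 and 111 ± 27.2 CPM in CD8 T cells. The test of the difference between the 2 genotype effects passed for 0 of 7824 genes (0.0% called by edgeR's quasi-likelihood test, 407 at an unadjusted p under 0.05, and 0 by DESeq2). The extra log2 change in members was 1.89 ± 0.41 for Slfn1 (adjusted p = 0.097), 1.33 ± 0.50 for Irf7 (adjusted p = 0.69), 1.18 ± 0.37 for Isg15 (adjusted p = 0.45) and 0.73 ± 0.23 for Ifi27l2a (adjusted p = 0.42). Ccr7, a lymph node homing receptor, had 2.98 ± 0.56 and Ikzf2, a transcription factor gene, 1.38 ± 0.27 (adjusted p = 0.054 for both), and Tcf7 had 2.16 ± 0.48 (adjusted p = 0.097). Ccr7 passed in 8 of 13 alternatives, among them DESeq2 size factors (adjusted p = 0.040) and Trdc of at least 2 UMIs (0.028), with adjusted p over all 13 from 9.8e-10 to 0.753. Tcf7 and Slfn1 passed in 3 of 13 each. Without iKO sample 4 the count was 67, without control sample 1 it was 7, it was 6 when iKO sample 1, control sample 3 or control sample 4 was dropped, and without iKO sample 2 it was 1.

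Against CD8 T cells of the same 7 samples, members were higher in receptor, resting and circulation genes. They were lower in checkpoint and division genes and in some effector genes. This comparison was added after the data had been seen, and it blocked on sample. Of 7824 genes tested 773 were higher in members (9.88%) and 1223 lower (15.6%) by edgeR's quasi-likelihood test at an adjusted p of 0.05. The 8 genes the rule used were left out of the lists. Members' median depth was 5319.5 to 8067.5 UMIs and that of CD8 T cells 8019 to 17908. The part of this difference in depth in the result was not tested.

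Gamma-chain genes were far higher in members. Trgc1 was at 198 ± 80.8 CPM (SD, n = 7) in members and 2.84 ± 2.30 in CD8 T cells (log2 difference 6.23 ± 0.35, adjusted p = 2.6e-13), and Trgc4 at 148 ± 39.6 and 2.95 ± 1.73. All 8 gamma-delta receptor genes tested were higher in members. Trac was lower, at 86.5 ± 47.3 against 472 ± 80.5 CPM (-2.49 ± 0.18, adjusted p = 5.3e-11).

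Of the 10 genes of the circulation list 7 were higher in members and 0 lower, with a median log2 difference of 1.66 beside -0.03 over all genes. Tcf7 was at 347 ± 60.3 CPM in members and 93.7 ± 71.2 in CD8 T cells (2.37 ± 0.34, adjusted p = 5.7e-06). Il7r, the interleukin 7 receptor that supports resting T cells, was at 881 ± 411 and 161 ± 108 (2.68 ± 0.21, adjusted p = 1.6e-10). Both were higher in members in 7 of 7 samples. S1pr1, the receptor for exit from tissue into blood and lymph (2.46 ± 0.38), and Lef1 (1.67 ± 0.30) were also higher.

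Of the 30 type 1 and cytotoxic genes 7 were higher and 7 lower. Higher were the surface receptors Cd7 (2.65 ± 0.25), Klrc2 (1.21 ± 0.21), Klrk1, which encodes NKG2D (0.61 ± 0.16), Cxcr3 (1.26 ± 0.38) and Ly6c2 (1.16 ± 0.15), and also Fcer1g, a signalling chain, and the cytokine gene Tnf, which was detected in 16 of 24 type 17 members and 5 of 119 others. Lower were Gzmb, at 107 ± 164 CPM against 1108 ± 968 (-3.61 ± 0.28, adjusted p = 1.1e-10), Ifng (-2.92 ± 0.24), Prf1, which encodes perforin (-2.83 ± 0.23), Gzmk (-3.94 ± 0.44), Nkg7 (-1.33 ± 0.15) and the chemokines Ccl3 (-4.49 ± 0.33) and Ccl4 (-3.92 ± 0.22). Ccl5 did not pass, at 5688 ± 1655 and 4420 ± 1680 CPM (0.33 ± 0.15, adjusted p = 0.11).

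Of the 11 checkpoint genes tested 9 were lower in members and 0 higher, with a median of -2.78. Pdcd1, which encodes PD-1, was at 36.2 ± 20.6 against 248 ± 89.0 CPM (-2.78 ± 0.23, adjusted p = 4.0e-10), Lag3 at 8.79 ± 9.34 against 180 ± 93.9 (-4.31 ± 0.35) and Havcr2, which encodes TIM-3, at 3.97 ± 5.28 against 131 ± 67.4 (-4.99 ± 0.39). All 20 proliferation genes were lower, with a median of -3.39. Mki67 was at 20.3 ± 17.7 against 225 ± 64.9 CPM (-3.54 ± 0.24, adjusted p = 1.4e-11). Penk, the opioid precursor gene, and Tff1 had 0 UMIs in members of these samples and were at least 16-fold and 15.9-fold lower than in CD8 T cells, taking a limit of 3 counts over the group.

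**Figure D5:**
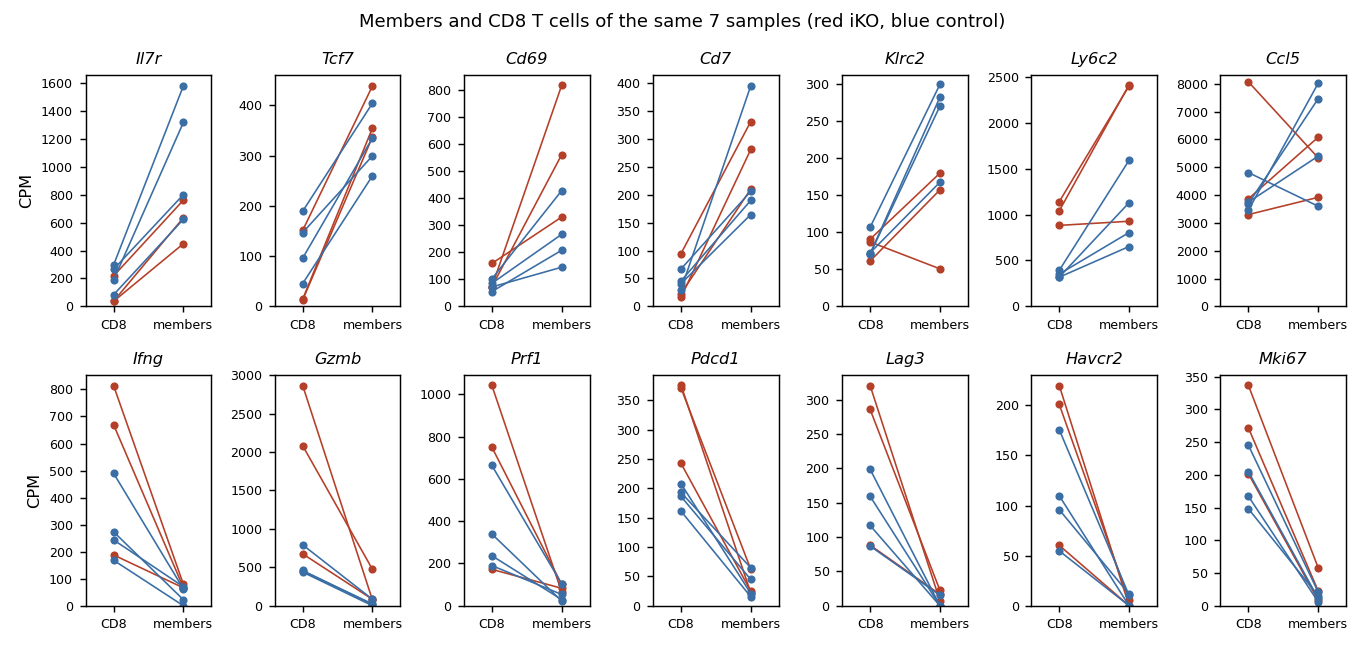
CPM of 14 genes in CD8 T cells and in members, with a line joining the 2 values of each of the 7 tested samples (red iKO, blue control) on linear axes from 0. Il7r, Tcf7, Cd69, Cd7 and Ly6c2 go up in each sample and Ifng, Gzmb, Prf1, Pdcd1, Lag3, Havcr2 and Mki67 go down in each, while Ccl5 goes either way.

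Of the 20 type 17 genes tested 16 were higher in members, 3 lower (S100a4, Batf and Csf2) and 1 did not pass. Il18r1 (0.85 ± 0.15) and Tmem176b (3.87 ± 0.36) were among the 16. With the 24 type 17 members taken out, 4 of 11 type 17 genes tested were higher and 4 lower, whereas the circulation list had 8 higher of 10 and the type 1 list 9 higher and 7 lower of 30. Other genes with large differences were Klrb1c (5.32 ± 0.53), Rbpms, an RNA-binding protein gene (5.07 ± 0.53), and Tmem64 (2.56 ± 0.33) among those higher. Among those lower were Ccl1, a chemokine (-7.84 ± 0.42), Nrn1 (-6.38 ± 0.54), Nrgn (-6.34 ± 0.38), and Rgs16, a G-protein regulator (-5.38 ± 0.35). Cd69, an early activation and residency marker, was at 394 ± 233 against 88.2 ± 34.4 CPM (2.09 ± 0.22, adjusted p = 5.0e-08). The dissociation-stress list had 7 of 12 genes higher in members and 0 lower, among them Fos (1.65 ± 0.28). Its part in the Cd69 difference was not tested.

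Cells that met every other condition of the rule but had no Trdc UMI numbered 787 in the 7 tested samples. The rule does not make them a pure T cell group. Of all 832 such cells 118 held at least 5 UMIs of S100a9. So did 12 of the 111 members with 3 or more Trdc UMIs, 0 of 19 with 2 and 0 of 13 with 1. This share set the groups apart less than the S100a9 level given below. Against them 390 of 6199 genes were higher in members (6.29%) and 773 lower (12.5%). Trgc1 was at 198 ± 80.8 CPM (SD, n = 7) in members against 10.6 ± 7.29 (4.21 ± 0.30, adjusted p = 7.3e-11), Trgc2 at 163 ± 60.6 against 23.6 ± 6.69 (2.75 ± 0.25) and Trgv2 at 165 ± 26.7 against 24.7 ± 10.9 (2.72 ± 0.22). Trac was lower in members (-1.65 ± 0.23, adjusted p = 4.8e-06), and 61.7% of all 832 such cells held a Trac UMI. Of 29 type 1 and cytotoxic genes tested 13 were higher and 5 lower, and of 10 circulation genes 5 were higher and 1 lower. Of 9 checkpoint genes tested 1 was higher and 2 lower, and of 9 proliferation genes 0 passed. The low checkpoint and division genes seen against CD8 T cells were thus mostly not found against these cells. Klrc1, which encodes the NK receptor NKG2A, was at 249 ± 113 against 82.9 ± 23.2 CPM (1.53 ± 0.24, adjusted p = 3.0e-05), Ctsw, a cytotoxic-cell protease, at 317 ± 75.6 against 150 ± 41.1 (1.05 ± 0.15) and Tcf7 at 347 ± 60.3 against 156 ± 52.7 (1.19 ± 0.19).

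Marker genes of other cell types were among those lower in members than in these cells. All 6 neutrophil genes, all 8 macrophage genes and all 6 dendritic cell genes that were tested were lower, for example S100a9 at 228 ± 165 against 4111 ± 2920 CPM (-4.08 ± 0.34, adjusted p = 1.2e-09) and H2-Aa at 259 ± 281 against 2477 ± 1147 (-3.44 ± 0.34). The dissociation-stress list had 8 of 12 genes lower and 1 higher, and the type I interferon list 13 of 52 lower and 2 higher. The part of transcripts of those cell types in the differences was not tested.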

How the data were processed

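The data were 10x 3' single-cell UMI counts with hashtag antibodies, aligned by the authors with Cell Ranger 7.1.0 to GRCm39, per the submitters' processing notes, and deposited as raw count matrices, 1 for each of 8 hashtagged samples. Members and gene lists were chosen with earlier results of these data known. Barcodes with at least 300 genes and at most 10% mitochondrial UMIs were kept. UMIs were summed per sample and class, for samples with at least 10 cells, and tested with edgeR 4.0.16 (TMM, filterByExpr, quasi-likelihood, Benjamini-Hochberg, threshold 0.05), with the sample as a block between classes. DESeq2 1.42.0 was an alternative. Shares were tested by exact permutation over samples. Doublet scores came from Scrublet in scanpy 1.11.5, and the edgeR fits were tested on simulated counts. Same-numbered samples of the genotypes were not treated as pairs. Other genes named were list genes, and the 12 largest changes in each direction with at least 50 CPM in the higher group and the same direction in every sample. Some genes of the lists are not reported here.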

Additional observations from a re-analysis of the deposited data

Results flagged for a closer look

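In 6 of 50 groups of 4 samples examined, 1 sample lay far from the other 3 (Dixon's criterion, which flags about 1 in 20 groups by chance). The type 17 share of members was 45.2% in control sample 3, against 0% to 6.25% in the other controls. Gzmb was at 472 CPM in members of iKO sample 2, and Xaf1 at 230 CPM in the same sample. Ifit1 was at 124 CPM in members of iKO sample 4, below the other iKO samples. Ifit3 was at 104 CPM in members of control sample 1. Irf7 was at 35.2 CPM in members of control sample 3, still below every iKO sample.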

How the results depend on the processing

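The genotype comparison called 14 genes, and between 9 and 37 when each sample was left out in turn. It called 88 with no filter on low counts. The 14 genes included 7 that kept their call under every alternative in which they were tested, Ifi27l2a, Irf7, Isg15, Slfn1, Ifit1, Rps10 and S100a9. Ifit1 was tested in 14 alternatives and each of the others in 15. With the replicate number as a block, Ly6a passed (adjusted p = 0.00054), and 14 genes were called, 10 higher and 4 lower, of which 8 were shared with the unblocked fit, and Ifit3 had an adjusted p of 0.0509. The numbers do not pair samples, as same-numbered deviations correlated at 0.009, 0.062 and 0.037. The blocked share of kept cells had an exact permutation p of 0.25.

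The test of the genotype difference between members and CD8 T cells called 0 genes, 1 with DESeq2 size factors, 32 with no filter, 2 with Trdc of at least 2 UMIs, 2 without doublet-scored cells, and 0 to 67 with a sample left out. The Il17a share difference, 1.81 percentage points, ranged from -0.0504 to 4.30 with a sample left out, and it reversed without iKO sample 2. The cause was not tested. No share test passed under any alternative run. Among named genes 739 values kept their side of the threshold, 42 lost it and 24 gained it. Fits limited to samples with at least 20 cells, and the genotype fit on members without Trac UMIs, were not run. With 7 to 31 members per sample, depth limits the test to genes with many counts.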
